A study of Mus musculus with 14 samples.

Results

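The p53 response genes described here are 30 mouse genes chosen by symbol: Trp53 itself, its regulators Mdm2 and Mdm4, and genes that p53 is known to switch on. All 30 were found among the 18479 protein-coding loci placed on the mm9 genome build. All 30 could be compared in RNA-seq, where 8420 genes were compared in all, and 18 could be compared in the pulldown of microRNA-bound mRNA, where 5246 genes were compared. At the mRNA level the genes differed little between conditions, and Gdf15 stood apart from scr with the widest ratio. In the pulldown, 10 of the 18 were at least 2-fold higher in miR-93-5p than in scr by FPKM, where 11.8% of all genes were, Btg2 and Gadd45a among them, whereas Trp53 was lower. Btg2 and Gadd45a were about as high in the pulldown of the mutated microRNA, while Trp53inp1 and Mdm2 were higher in the miR-93-5p pulldown than in that one. The start of every member with a known strand carried a peak of H3K4me3, a mark of active promoters, in both conditions examined. Of all genes with a known strand, 52.5% had one in miR-93-5p and 52.9% in scr. All members, but not all genes, also passed the level filter of the RNA-seq comparison.

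The cells were LEPC, a mouse cell line of strain C57BL/6 at 3 passages, grown in DMEM with fetal bovine serum. There were 3 conditions: overexpression of miR-93-5p, overexpression of miR-93-5p with a mutation (called mutant), and a control called scr. Each condition had 1 RNA-seq library and 1 pulldown library, labelled as interacting mRNA, and the text of the series names biotin for the miR-93-5p cells. Chromatin immunoprecipitation of H3K4me3, H3K27me3 and H3K9me3 was done in miR-93-5p and scr cells, with 1 peak list for each mark and condition, and the 2 input samples were not analysed here. The labels give neither the changed bases of the mutant, nor the vector or bait, nor whether a line is 1 clone, and no value here measures the microRNA itself. With 1 library in each group there was no replicate error and no test, so each difference below is one between libraries. A ratio of at least 2-fold is a size chosen to describe them. Each library is a bulk sample, in which fewer cells of a type and less RNA per cell cannot be told apart.

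The protein p53 is a transcription factor that is held low by Mdm2, which marks it for destruction, and that accumulates after DNA damage and other stress. It then binds sites near its target genes and raises their transcription, among them genes that halt the cell cycle, trigger apoptosis, repair DNA, alter metabolism, and Mdm2, which closes a feedback loop. In liver, loss of p53 function is a common step in hepatocellular carcinoma. A microRNA pairs with mRNAs mainly through its seed and lowers their level or translation.

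The sequence of miR-93-5p is shown because a microRNA recognises mRNAs through the seed, bases 2 to 8 from the 5′ end, set in capitals. Mature miR-93-5p lies at chr5:138165574-138165596 on the minus strand of GRCm38.p6, and the sequences are RefSeq's. Among 1738 mature sequences listed there, 7 carried this seed, and 4 of them are given here. The other 3 were miR-20b-5p, miR-106a-5p and miR-6383.
miR-93-5p: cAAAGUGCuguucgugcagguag
miR-106b-5p: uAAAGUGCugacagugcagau
miR-17-5p: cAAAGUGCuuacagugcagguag
miR-20a-5p: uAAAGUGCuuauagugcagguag
The 4 sequences have identical capitals and differ in the bases downstream of the seed.

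Promoters are shown for 4 members whose values are described below, since p53 acts at such sites. Each is the 250 bases before the RefSeq gene start, read in the direction of the gene on GRCm38.p6. The Mdm2 stretch is chr10:117710759-117711008, that of Ccng1 chr11:40755287-40755536, that of Gadd45a chr6:67037408-67037657 and that of Bax chr7:45466899-45467148, all on the minus strand. Capitals mark bases of the consensus half-site of p53, a motif of 10 bases, or of a full site made of a pair of half-sites.
Mdm2: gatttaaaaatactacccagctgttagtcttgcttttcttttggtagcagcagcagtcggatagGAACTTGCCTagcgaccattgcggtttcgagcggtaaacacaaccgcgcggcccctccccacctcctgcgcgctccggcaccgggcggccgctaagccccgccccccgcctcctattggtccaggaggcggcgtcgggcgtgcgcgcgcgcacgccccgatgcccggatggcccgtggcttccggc
Ccng1: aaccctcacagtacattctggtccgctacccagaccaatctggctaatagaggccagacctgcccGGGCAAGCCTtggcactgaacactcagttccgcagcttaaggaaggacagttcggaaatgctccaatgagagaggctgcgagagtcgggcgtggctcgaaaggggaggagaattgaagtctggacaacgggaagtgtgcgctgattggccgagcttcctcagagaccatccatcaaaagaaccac
Gadd45a: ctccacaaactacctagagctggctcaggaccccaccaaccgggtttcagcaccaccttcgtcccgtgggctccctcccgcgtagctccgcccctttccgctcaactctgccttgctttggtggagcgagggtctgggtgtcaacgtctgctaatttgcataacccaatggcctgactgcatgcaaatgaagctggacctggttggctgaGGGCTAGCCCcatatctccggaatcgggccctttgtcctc
Bax: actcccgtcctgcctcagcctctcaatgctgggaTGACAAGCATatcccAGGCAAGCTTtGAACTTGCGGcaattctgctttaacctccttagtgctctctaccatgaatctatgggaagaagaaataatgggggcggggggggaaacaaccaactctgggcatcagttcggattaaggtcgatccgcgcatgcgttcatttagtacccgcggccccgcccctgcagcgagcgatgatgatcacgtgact
The half-site begins at position -186 relative to the start of Mdm2, at -185 for Ccng1 and at -40 for Gadd45a. In Bax the capitals form 2 overlapping full sites, the first beginning at position -216. The consensus reads the same on both strands, so 1 search covers both. In windows of 300 bases, from 250 before to 50 after each start, an exact half-site was found in 10 of 29 member windows (34.5%), which belong to 9 of the 22 members that have one. Of all 21263 promoter windows 1568 (7.37%) held one. A full site, with a spacer of at most 13 bases and at most 2 mismatches outside the core, was found in the windows of Bax and Sesn1 (6.90% of member windows) and in 1.81% of all windows. The 2 windows of Aen share the same half-site. A match is a description of the letters and does not show binding.

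RNA-seq levels are given in FPKM, which scales fragments by transcript model length and library depth, so levels can be set beside each other between genes. In miR-93-5p cells the levels of the members ran from 2.36 FPKM for Plk3 to 267 FPKM for Bax. Ratios are log2 of FPKM plus 1, and a call of 2-fold in FPKM is made on that scale. The added 1 shrinks the ratios of low levels, so a gene not called can be past 2-fold in FPKM alone. Each library was assembled on its own and FPKM depends on the length of the assembled model. A second measure that does not divide by that length is therefore given where it matters. It is an estimate of the fragments behind each value, worked back from the width of the FPKM bounds, and it is called implied fragments and scaled between libraries. Reads that fit several isoforms widen the bounds too, so the estimate can be too low. It also takes in only fragments of the assembled locus, so a locus cut short or run past the gene can change it.

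**Figure D1:**
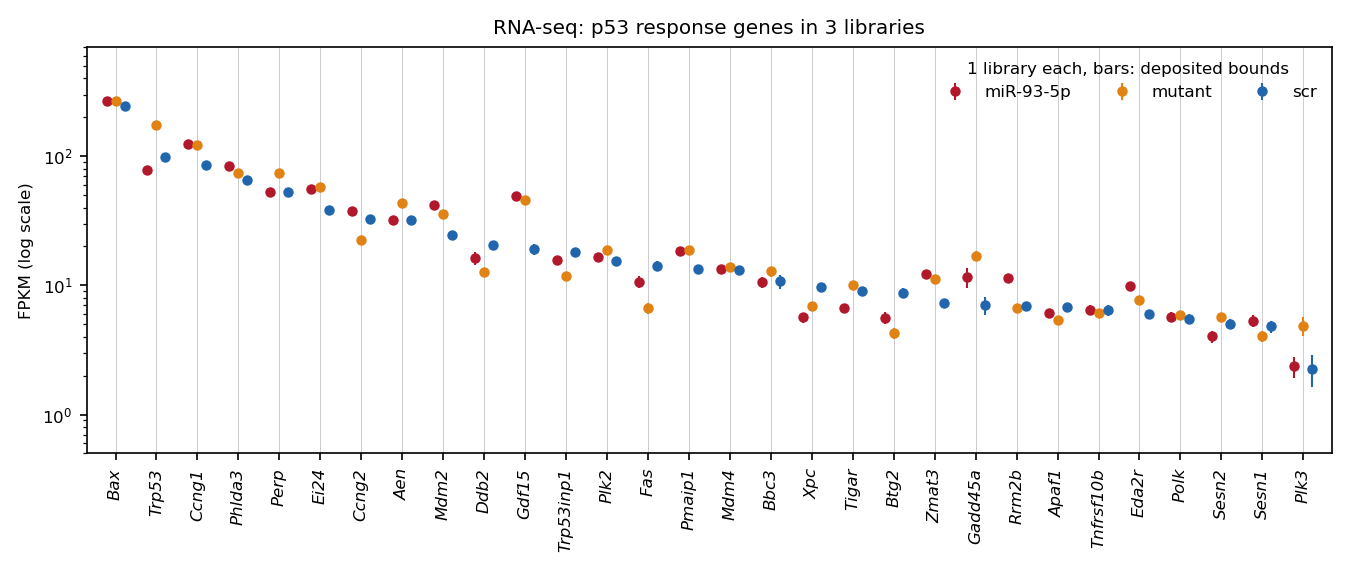
RNA-seq level of the 30 p53 response genes in FPKM on a log axis, with 1 point for each of the miR-93-5p, mutant and scr libraries and vertical lines for the deposited bounds. The 3 points of most genes lie close together, while Gdf15 has scr at 19.0 FPKM apart from 48.7 FPKM in miR-93-5p and 45.5 FPKM in mutant.

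Against scr, 1 of 30 members was at least 2-fold apart in miR-93-5p, where 6.83% of all 8420 genes were. The member was Gdf15, which encodes a secreted stress cytokine (mm9 chromosome 8, 73153292 to 73156355). Its level was 48.7 FPKM in miR-93-5p, 45.5 FPKM in mutant and 19.0 FPKM in scr, so both microRNA libraries were high and scr was low. The log2 ratio over scr was 1.32 for miR-93-5p and 1.22 for mutant in FPKM, and 1.50 for miR-93-5p and 1.72 for mutant in implied fragments. Between miR-93-5p and mutant the log2 ratio was 0.10. The median log2 ratio of the 30 members over scr in miR-93-5p was 0.043, beside 0.030 over all genes, with 19 members above 0 and 11 below. The share past 2-fold and the median were thus close to those of all genes.

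Trp53 itself (mm9 chromosome 11, 69393861 to 69405375) was at 78.2 FPKM in miR-93-5p, 176 FPKM in mutant and 98.1 FPKM in scr. In FPKM plus 1 it was the 1 member at least 2-fold apart between miR-93-5p and mutant, at -1.16, where 3.62% of all genes were. Without the added 1, Plk3 was past 2-fold there too, at 0.485 of mutant. In scaled implied fragments the order for Trp53 was the reverse, with 2269 in miR-93-5p, 1350 in mutant and 1731 in scr. Its log2 ratio over mutant in that measure was 0.74. In that measure the 1 member past 2-fold between miR-93-5p and mutant was Gadd45a, lower at -1.65, where 5.71% of all genes were higher and 6.22% lower. The assembled Gadd45a locus was shorter in miR-93-5p than in mutant. The direction for Trp53 therefore depended on the measure, and a pseudogene, Trp53-ps, is also annotated, so reads shared with it leave the level uncertain. Mdm2, the ubiquitin ligase that degrades p53 (mm9 chromosome 10, 117125944 to 117147814), was at 41.6 FPKM in miR-93-5p, 35.4 FPKM in mutant and 24.5 FPKM in scr. Its log2 ratio of miR-93-5p over scr was 0.74 in FPKM and 0.77 in implied fragments, below 2-fold. Mdm4, the related p53 inhibitor, was level across libraries at 13.5 FPKM in miR-93-5p, 14.0 FPKM in mutant and 13.3 FPKM in scr, and it too has an annotated pseudogene.

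Among 6 members of growth control, none was at least 2-fold apart from scr in miR-93-5p, where 6.83% of all genes were. In mutant 1 was in FPKM plus 1, where 6.27% of all genes were. That gene was Gadd45a, a stress gene of growth arrest, at 11.6 FPKM in miR-93-5p, 16.8 FPKM in mutant and 7.03 FPKM in scr. Its log2 ratio over scr was 0.65 in miR-93-5p and 1.15 in mutant in FPKM, and -0.47 in miR-93-5p and 1.18 in mutant in implied fragments, so the miR-93-5p library was above scr in one measure and below it in the other. The assembled Gadd45a locus shared 0.62 of the joint length with the gene in miR-93-5p, 0.89 in mutant and 0.91 in scr. The part of that shorter locus in either ratio was not tested. Ccng1, which encodes cyclin G1, was at 124 FPKM in miR-93-5p, 123 FPKM in mutant and 85.9 FPKM in scr, high in both microRNA libraries by less than 2-fold. Btg2, an antiproliferative factor, was lowest in the microRNA libraries, at 5.61 FPKM in miR-93-5p and 4.28 FPKM in mutant against 8.78 FPKM in scr. Without the added 1 its mutant level was 0.488 of scr, past 2-fold. Ccng2, which encodes cyclin G2, was at 37.7 FPKM in miR-93-5p, 22.6 FPKM in mutant and 32.4 FPKM in scr. The kinase genes Plk2 and Plk3 had log2 ratios over scr of 0.10 and 0.04 in miR-93-5p. Without the added 1, Plk3 in mutant was 2.15 times scr, past 2-fold. In implied fragments, Ccng2 and Plk3 were past 2-fold over scr in miR-93-5p, at 1.31 and 1.03. With Gdf15 they made 3 of 30 members higher in that measure, where 7.56% of all genes were, and Ddb2 was the 1 member lower, where 7.68% were. The assembled scr locus of Ddb2 ran past the end of the gene, as described below.

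In FPKM plus 1 none of the 13 members with a role in cell death was 2-fold apart in any RNA-seq comparison. Of all genes, 6.83% were for miR-93-5p over scr, 3.62% for miR-93-5p over mutant and 6.27% for mutant over scr. In implied fragments Zmat3 alone was, at 1.39 for mutant over scr, where 7.77% of all genes were higher. In FPKM their log2 ratios of miR-93-5p over scr ran from -0.38 to 0.68. Bax, a pore-forming protein of the mitochondrial membrane, had the highest level of all members, at 267 FPKM in miR-93-5p, 269 FPKM in mutant and 243 FPKM in scr. The BH3-only genes Bbc3 (PUMA) and Pmaip1 (NOXA) had log2 ratios over scr of -0.02 and 0.43 in miR-93-5p. Zmat3, which encodes an RNA-binding zinc finger protein, was at the top of the range, at 12.2 FPKM in miR-93-5p, 11.2 FPKM in mutant and 7.24 FPKM in scr. The death receptor gene Fas was at the bottom, at 10.7 FPKM in miR-93-5p, 6.65 FPKM in mutant and 14.2 FPKM in scr. For Fas the mutant was furthest from scr, at a log2 ratio of -0.99, just inside the 2-fold limit. Without the added 1 its mutant level was 0.468 of scr, past 2-fold. The receptor gene Tnfrsf10b, at 0.00, and the apoptotic nuclease gene Aen, at -0.01, were level between miR-93-5p and scr. Perp, which encodes a membrane protein of desmosomes, was level as well, at 0.01. The last members of this group, Apaf1, Ei24, Eda2r, Trp53inp1 and Phlda3, lay between -0.19 and 0.64.

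The DNA repair and synthesis members were split. Rrm2b, a p53-induced subunit of ribonucleotide reductase, was at 11.3 FPKM in miR-93-5p, 6.74 FPKM in mutant and 6.88 FPKM in scr. Xpc, which recognises damage in nucleotide excision repair, was at 5.64 FPKM in miR-93-5p, 6.95 FPKM in mutant and 9.75 FPKM in scr, the lowest log2 ratio of any member for miR-93-5p over scr at -0.69. Rrm2b was thus high and Xpc low in miR-93-5p, each by less than 2-fold. Ddb2, which acts with Xpc, was at 16.4 FPKM in miR-93-5p, 12.6 FPKM in mutant and 20.6 FPKM in scr. Its log2 ratio of miR-93-5p over scr was -0.31 in FPKM and -1.43 in implied fragments. The assembled scr locus of Ddb2 ran to 91088829 on mm9 chromosome 2, past the gene end at 91077139. The scr fragments may thus include some from outside the gene, while the miR-93-5p and mutant loci stopped within it. The lesion-bypass polymerase gene Polk was level, at a log2 ratio of 0.04 over scr. Of the metabolic members, the sestrin genes Sesn1 and Sesn2 and the fructose bisphosphatase gene Tigar had log2 ratios over scr of 0.12, -0.27 and -0.39.

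Between mutant and scr, 2 of 30 members were at least 2-fold apart in FPKM plus 1, where 6.27% of all genes were. They were Gdf15 and Gadd45a. Without the added 1, Plk3, Btg2 and Fas were past 2-fold too, at 2.15, 0.488 and 0.468 of scr. In implied fragments Gdf15, Gadd45a, Zmat3, at 1.39, and Plk3, at 1.04, were past 2-fold. That made 4 members higher and 0 lower, where 7.77% and 7.22% of all genes were. The median of the members was 0.16, beside 0.015 over all genes, with 20 above 0 and 10 below. Between miR-93-5p and mutant the members split evenly, 15 above 0 and 15 below, with a median of 0.0026 beside 0.015 over all genes. The 10 members Mdm4, Gadd45a, Zmat3, Plk3, Eda2r, Ei24, Rrm2b, Ddb2, Xpc and Apaf1 overlap another annotated gene, so their levels may include its reads. These comparisons share libraries and are not independent of each other. The error that counting alone puts on a member's log2 ratio had a median of 0.069 for miR-93-5p over scr, and it leaves out variation between cultures.

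The pulldown libraries differed in depth and assembly. Unscaled implied fragments summed to 3814082 in miR-93-5p, 5855469 in mutant and 5322228 in scr, and the median assembled locus spanned 2121 bp in miR-93-5p, 9086 bp in mutant and 9176.5 bp in scr. The median log2 ratio over all genes was -0.48 for miR-93-5p over scr, so members are read against that shift. The part of the shorter loci in the FPKM ratios was not tested. The implied fragments, which do not divide by model length, are given beside them. A shorter locus can also take in fewer fragments, and its part in that measure was not tested either. A pulldown level reflects both how much of an mRNA was present and how much of it was recovered.

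**Figure D2:**
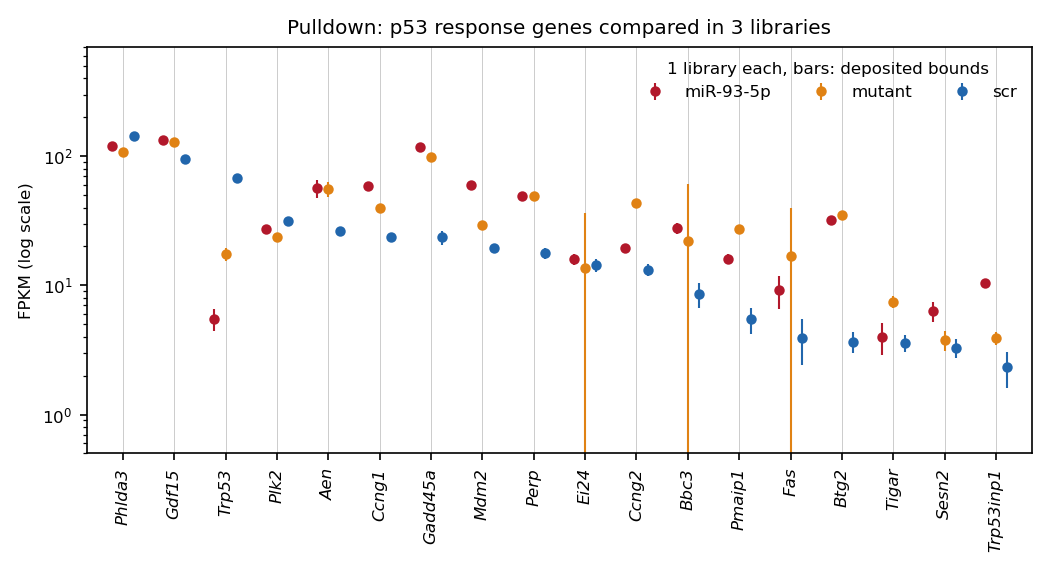
Pulldown level of the 18 p53 response genes compared, in FPKM on a log axis, with 1 point for each of the miR-93-5p, mutant and scr libraries and lines for the deposited bounds, which are cut at the axis floor of 0.5 FPKM where they reach 0. Btg2, Gadd45a, Perp and Pmaip1 have scr well below both microRNA libraries, and Trp53 has scr at 67.5 FPKM, above both.

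In the pulldown, 10 of 18 members were higher in miR-93-5p than in scr by 2-fold or more and 1 was lower by as much, where 11.8% of all 5246 genes were higher and 33.5% lower. The median of the members was 1.06, beside -0.48 over all genes. With ratios centred on the all-gene median 12 of the 18 members were higher by 2-fold or more, where 20.7% of all genes were. In implied fragments, available for 15 of the 18, the median was 1.13, with 8 members higher by 2-fold or more and 2, Trp53 and Aen, lower, where 20.6% and 22.6% of all genes were. In both measures together 7 members were higher and 1 was lower. Among all genes, of which 4952 had both measures, 488 were higher and 797 lower in both. Pulldown ratios over scr were lower for genes with a higher RNA-seq level: the median of all genes was -0.02 in the lowest of 4 equal abundance groups and -1.05 in the highest. The members' medians in those groups, lowest to highest, were 1.32, 1.40, 0.53 and 0.51, each above that of all genes of the same group.

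Of 5 growth control members compared, 3 were at least 2-fold higher in miR-93-5p than in scr in FPKM, where 11.8% of all genes were. Btg2 was at 31.9 FPKM in miR-93-5p (bounds 29.9 to 33.9), 35.1 FPKM in mutant (33.3 to 37.0) and 3.66 FPKM in scr (2.99 to 4.33). Both microRNA libraries were high and scr was low, with log2 ratios over scr of 2.82 in miR-93-5p and 2.96 in mutant. In implied fragments they were 3.58 in miR-93-5p and 3.28 in mutant. Its RNA-seq level was lower in both microRNA libraries than in scr. Gadd45a was at 117 FPKM in miR-93-5p, 98.9 FPKM in mutant and 23.5 FPKM in scr, with log2 ratios over scr of 2.26 in miR-93-5p and 2.03 in mutant. Another annotated gene, E230016M11Rik, overlaps Gadd45a, so reads of both may be counted together, and whether counting used strand is not given in the sources used here. Ccng1 was at 58.6 FPKM in miR-93-5p, 39.7 FPKM in mutant and 23.6 FPKM in scr, a stepwise order with a log2 ratio over scr of 1.28 in miR-93-5p and 0.73 in mutant. Ccng2 was highest in mutant, at 19.5 FPKM in miR-93-5p, 43.2 FPKM in mutant and 13.2 FPKM in scr. Plk2 was level, at a log2 ratio of -0.19 for miR-93-5p over scr.

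Of 8 cell death members compared, 6 were at least 2-fold higher in miR-93-5p than in scr in FPKM, where 11.8% of all genes were. Aen is lower than scr in implied fragments, and Bbc3 and Fas have no value in that measure. Trp53inp1, a stress-induced partner of p53, was at 10.3 FPKM in miR-93-5p, 3.90 FPKM in mutant and 2.34 FPKM in scr. It was highest in miR-93-5p, at 1.77 over scr and 1.21 over mutant on the log2 scale, and at 4.27 and 1.70 in scaled implied fragments, which numbered 877 in miR-93-5p, 262 in mutant and 35.8 in scr. Perp was at 49.5 FPKM in miR-93-5p, 49.0 FPKM in mutant and 17.7 FPKM in scr, and Pmaip1 was at 16.0 FPKM in miR-93-5p, 27.1 FPKM in mutant and 5.45 FPKM in scr. For both genes scr was low and the mutant was level with or above miR-93-5p. Bbc3 was at 27.8 FPKM in miR-93-5p, 22.0 FPKM in mutant and 8.52 FPKM in scr, and Fas at 9.14 FPKM in miR-93-5p, 16.9 FPKM in mutant and 3.94 FPKM in scr, but the mutant bounds of both reach 0, so the mutant level is not determined for either. Aen was at 56.6 FPKM in miR-93-5p, 56.1 FPKM in mutant and 26.1 FPKM in scr. Its scaled implied fragments were 218 in miR-93-5p, 168 in mutant and 551 in scr, with scr the highest, so its direction over scr depended on the measure. Ei24 and Phlda3, which encode an endoplasmic reticulum protein and an inhibitor of Akt, had log2 ratios over scr of 0.14 and -0.26.

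**Figure D3:**
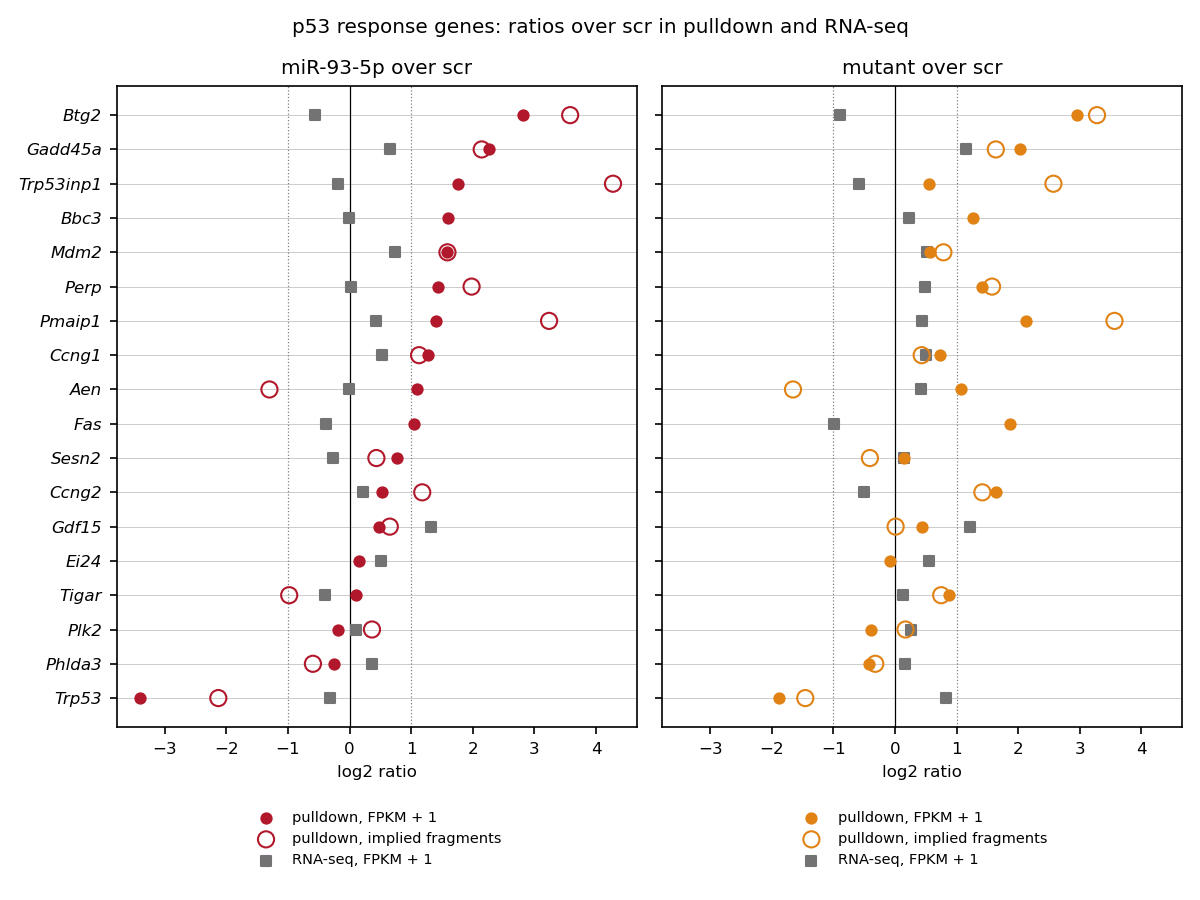
Log2 ratios over scr of the 18 p53 response genes compared in the pulldown, for miR-93-5p on the left and mutant on the right, with filled circles for pulldown FPKM plus 1, open circles for pulldown implied fragments and squares for RNA-seq FPKM plus 1; dotted lines mark 2-fold. Most pulldown circles lie right of 0, most RNA-seq squares lie inside the dotted lines with Gdf15 and, in mutant, Gadd45a beyond them, Trp53 lies far left in the pulldown, and for Aen the open and filled circles lie on opposite sides of 0.

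Trp53 and its regulator Mdm2 lay on opposite sides of scr. Mdm2 was at 59.8 FPKM in miR-93-5p (bounds 56.2 to 63.3), 29.1 FPKM in mutant (27.4 to 30.8) and 19.3 FPKM in scr (17.7 to 20.9). The miR-93-5p library was high, at 1.58 over scr and 1.01 over mutant on the log2 scale, and at 1.59 and 0.80 in implied fragments. Trp53 was at 5.50 FPKM in miR-93-5p (4.41 to 6.58), 17.5 FPKM in mutant (15.5 to 19.6) and 67.5 FPKM in scr (62.5 to 72.5). In FPKM it was the lowest member in both microRNA libraries relative to scr, with log2 ratios of -3.40 in miR-93-5p and -1.89 in mutant. In implied fragments they were -2.13 in miR-93-5p and -1.46 in mutant. In RNA-seq, by contrast, its log2 ratio of miR-93-5p over scr was -0.32 in FPKM and 0.39 in implied fragments. Of the metabolic and secreted members, Sesn2, Gdf15 and Tigar had log2 ratios of 0.77, 0.48 and 0.11 for miR-93-5p over scr, none past 2-fold. Gdf15, the member furthest above scr in RNA-seq, was thus among the members with small ratios in the pulldown, at 132 FPKM in miR-93-5p, 129 FPKM in mutant and 94.9 FPKM in scr.

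Against the mutant pulldown the members were less far apart. In miR-93-5p 2 of 18 were at least 2-fold higher, Trp53inp1 and Mdm2, where 4.88% of all genes were. Another 2 were at least 2-fold lower, Trp53 and Ccng2, where 26.5% of all genes were. The median was 0.10, beside -0.43 over all genes, with 12 members above 0 and 6 below. In implied fragments 1 member was higher, Trp53inp1, and 1 was lower, Tigar, where 13% and 16.8% of all genes were. Between mutant and scr, 8 members were at least 2-fold higher and 1 was lower in FPKM plus 1. Of all genes 21.8% were higher and 22.9% lower. Tigar, at 2.08 times scr in FPKM without the added 1, is not among the 8. The 8 include Bbc3 and Fas, whose mutant bounds reach 0, and Aen, which is lower in implied fragments. In both measures 5 were higher, beside 704 of the 4952 genes that had both. The members' median there was 0.81, beside -0.056 over all genes. In implied fragments 6 were higher and 2 lower, where 19.4% of all genes lay past 2-fold in each direction. The mutant and miR-93-5p comparisons use the same scr library, so that library enters both.

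The 12 members not compared in the pulldown lacked, in at least 1 of the 3 libraries, an assembled locus that shared at least 0.5 of its joint length with the gene. They were Mdm4, Bax, Sesn1, Tnfrsf10b, Zmat3, Plk3, Eda2r, Rrm2b, Ddb2, Xpc, Polk and Apaf1, which include all 4 DNA repair and synthesis members. Bax was covered in every library, with best-overlapping loci at 421 FPKM in miR-93-5p, 333 FPKM in mutant and 511 FPKM in scr, but those loci shared 0.37 of the joint length in both microRNA libraries and 0.97 in scr. Mdm4 had best-overlapping loci at 80.6 FPKM in miR-93-5p, 12.2 FPKM in mutant and 2.54 FPKM in scr, with shared lengths of 0.76 in miR-93-5p, 0.77 in mutant and 0.36 in scr, and its scr locus rested on 9.09 unscaled implied fragments. The other 10 had best-overlapping loci at 0.849 to 7.27 FPKM, and no direction is read from them.

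A list of 50 other p53 pathway genes, which includes upstream kinases, caspases and further targets, was written from textbook knowledge. In RNA-seq 39 were compared, with a median of 0.18 for miR-93-5p over scr, 0 genes higher by 2-fold or more, where 2.97% of all genes were, and 1 lower by as much, where 3.86% were. In implied fragments 4 were higher and 7 lower, where 7.56% and 7.68% of all genes were. Rchy1, a ubiquitin ligase for p53, was at 50.8 FPKM in miR-93-5p, 139 FPKM in mutant and 25.0 FPKM in scr. Its log2 ratio of miR-93-5p over scr was 0.995, just under the 2-fold limit. Without the added 1 it was just past 2-fold. For mutant its log2 ratio over scr was 2.43 in FPKM and -0.33 in implied fragments, so its direction there depended on the measure. Shisa5 and the cyclin gene Ccnd1 had log2 ratios over scr of 0.93 and 0.85. The cell cycle inhibitor Cdkn1a, a classical p53 target, was at 46.2 FPKM in miR-93-5p (bounds 31.2 to 61.3), 48.5 FPKM in mutant (44.3 to 52.6) and 34.5 FPKM in scr (33.0 to 36.1). Its log2 ratios over scr in implied fragments had the opposite sign, -5.46 in miR-93-5p and -2.24 in mutant, so no direction is read for it. In the pulldown 25 were compared. For miR-93-5p over scr 1 was higher and 7 lower by 2-fold or more, where 11.8% and 33.5% of all genes were. The list had a median of -0.52, close to the -0.48 of all genes. Its 4 widest ratios were negative, -2.40 for the caspase gene Casp8, -2.33 for the protease gene Ctsd, -1.34 for Aifm2 and -1.32 for the checkpoint kinase gene Chek2. Between this list and the members the difference was not tested. In the other comparisons of RNA-seq, 1 gene of this list was higher and 1 lower in miR-93-5p than in mutant. Of all 8420 genes 156 were higher and 149 lower. For mutant over scr 2 genes of the list were higher and 2 lower, where 222 and 306 of all genes were. In the pulldown 0 were higher and 8 lower in miR-93-5p than in mutant, where 4.88% and 26.5% of all genes were. Between mutant and scr 4 were higher and 2 lower, where 21.8% and 22.9% of all genes were.

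H3K4me3 peaks lay at the start of all 22 members with a known strand, meaning within 1 kb of it, in miR-93-5p and in scr, where 52.5% and 52.9% of all 14800 genes with a known strand had one. Over the gene locus all 30 members had a peak in both conditions, where 56.6% and 56.3% of all genes did. All 30 members also passed the RNA-seq level filter, which not all genes did, and active promoters commonly carry this mark. Each of the 22 start peaks had the score 3100 in both lists, a value shared by 54.7% of peaks in miR-93-5p and 59.8% in scr. Scores of separate lists were not compared as signal, and width is given in its place. The members' start peaks had a median width of 3748 bp in miR-93-5p and 3851 bp in scr, beside 2951 bp and 2837 bp over all genes with a peak in both. Of the 22, 11 were wider in miR-93-5p, where 61.5% of 7713 genes were. The members at the ends of the range were Phlda3, wider in miR-93-5p with 6908 bp against 4942 bp in scr, and Plk2, narrower in miR-93-5p with 4480 bp against 5654 bp in scr. The H3K4me3 peak over Mdm2 was 5844 bp in miR-93-5p and 6150 bp in scr, and that over Btg2 was 4995 bp in miR-93-5p and 4783 bp in scr, so both were close in width between conditions. At Gdf15 the peak began 342 bp downstream of the mm9 start in miR-93-5p and 28 bp downstream in scr.

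**Figure D4:**
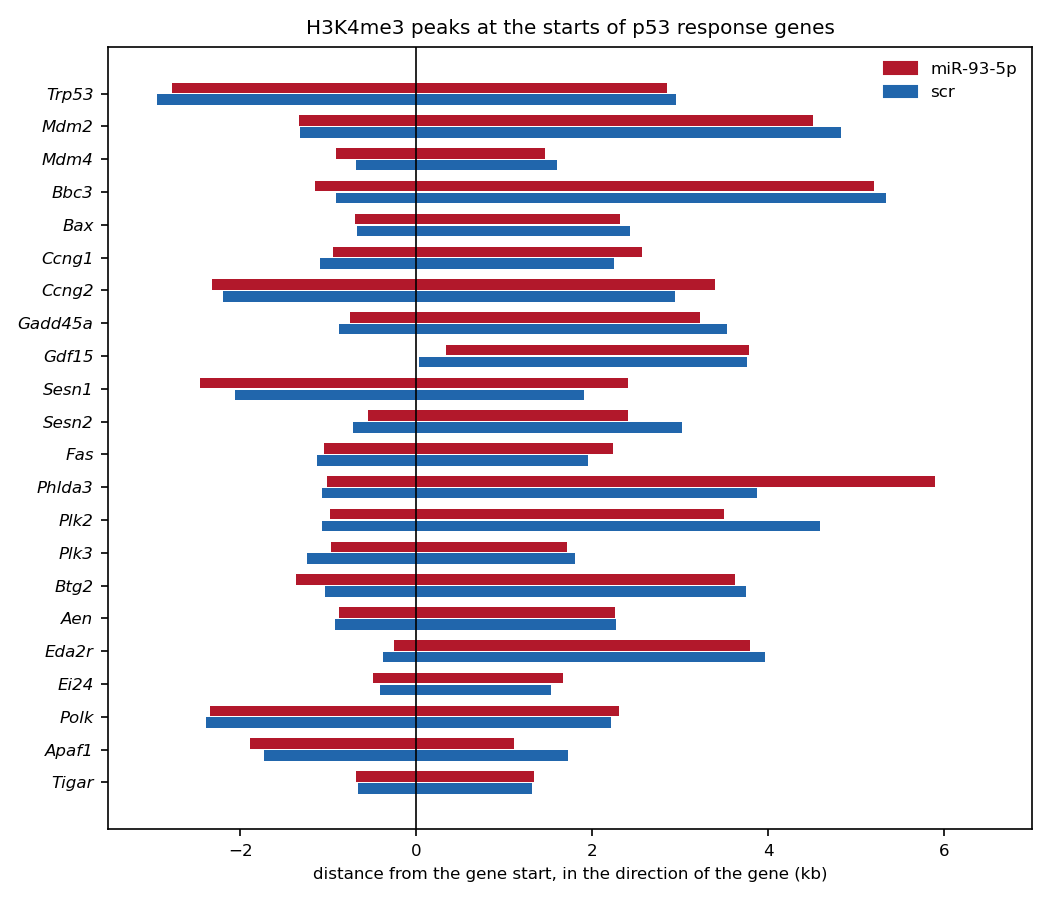
Extent of the H3K4me3 peak at the start of the 22 p53 response genes with a known strand, in miR-93-5p (upper bar of each pair) and scr (lower bar), as distance in kb from the gene start in the direction of the gene. Bars of a pair nearly coincide for most genes, with Phlda3 reaching further into the gene in miR-93-5p and Plk2 in scr.

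Peaks of the repressive marks were few at the starts of the members, as at those of all genes. All 30 members passed the RNA-seq level filter, which not all genes did. No start had an H3K27me3 peak in miR-93-5p and 1, that of Tigar, had one in scr, where 5.57% and 10.6% of all genes had one. The Tigar peak covered 127060195 to 127062609 on mm9 chromosome 6, from -3041 to -627 bp relative to the start, and its score of 162 lay within a list that runs from 50 to 2442. Over the gene locus no member had an H3K27me3 peak in either condition, where 19% of genes in miR-93-5p and 20.3% in scr did. Within 5 kb of the locus there were 2 in miR-93-5p, Fas and Tigar, and 5 in scr, Tnfrsf10b, Perp, Aen, Ei24 and Tigar, where 26% and 30.3% of all genes had one. The peaks of this mark had a median width of 473 bp in miR-93-5p and 1049 bp in scr, so the lists differ in what was called.

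H3K9me3 lay at no member's start in either condition, where 4.7% of genes in miR-93-5p and 3.42% in scr had a peak. Over the locus there was 1 member in miR-93-5p, Polk, and there were 3 in scr, Ccng2, Sesn1 and Polk, where 20.2% and 15.4% of all genes had a peak. The Polk peak was found in both conditions, at 97298242 to 97300835 on mm9 chromosome 13 in miR-93-5p and at 97298450 to 97300863 in scr, inside the gene and more than 11 kb from its start. The Ccng2 peak lay at the far end of the gene, reaching past it in scr (93704996 to 93706607 on chromosome 5) and beginning just beyond it in miR-93-5p (93705407 to 93706569). Within 5 kb of the locus there were 5 members in miR-93-5p and 4 in scr, where 26% and 19.5% of all genes had a peak. Gdf15 had a peak beyond its far end in both conditions. Plk2 had one in miR-93-5p, from -6411 to -4383 bp relative to its start, and Trp53inp1 had one in miR-93-5p within 5 kb of its locus.

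The content of the RNA-seq libraries was checked with marker genes. Of 6 markers of liver epithelium and progenitors 4 were matched in all libraries, led by Spp1 at 1076 FPKM in miR-93-5p, 1077 FPKM in mutant and 531 FPKM in scr and Krt8 at 230 FPKM in miR-93-5p, 283 FPKM in mutant and 658 FPKM in scr. Of hepatocyte markers 2 of 5 were matched, Hnf4a at 7.22 FPKM in miR-93-5p, 27.4 FPKM in mutant and 40.6 FPKM in scr and Apob at 2.54 FPKM in miR-93-5p, 10.0 FPKM in mutant and 29.1 FPKM in scr. Mesenchymal Vim was at 711 FPKM in miR-93-5p, 784 FPKM in mutant and 1061 FPKM in scr, no endothelial marker was matched, and the leukocyte marker Csf1r was at 1.16 FPKM in miR-93-5p, 1.82 FPKM in mutant and 7.63 FPKM in scr. Krt19, Epcam, Alb, Ttr, Afp, Col1a1, Pecam1 and Ptprc had no matched locus in all 3 libraries. Hnf4a, Apob and Csf1r were thus low in miR-93-5p beside scr, and the other hepatocyte and leukocyte markers had no value to compare. The part of such cells in the members' values was not tested.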

How the data were processed

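Per the labels, LEPC cells were profiled by RNA-seq, pulldown and chromatin immunoprecipitation, with 1 library for each assay and condition among 14 samples. TopHat2, Cufflinks and Cuffdiff, and CASAVA 1.4, Bowtie and MACS, are named with mm9 in the submitters' processing notes, without settings. The authors deposited FPKM for each assembled locus with bounds, per the file headers, and peak lists with a score for each peak, from 50 upward. Loci were matched to genes by coordinates as mutual best overlaps sharing at least 0.5 of their joint length. Locus ends lay within 5 bp of mm9 gene ends 913 to 1031 times for each RNA-seq library and of GRCm38 ends 31 to 34 times; for the pulldown the counts were 20 to 31 and 601 to 712. Pulldown loci were therefore named through the GRCm38.p6 RefSeq table, and none of their coordinates is given.

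Genes with a mean of at least 1 FPKM over the 3 libraries of an assay were compared, with a pseudocount of 1. Implied fragments are the squared ratio of FPKM to its counting error, taken from the bounds; they were scaled to a median ratio of 1 with 10 added, and at least 3 were needed in each library. Their sum over loci was 15301761 in miR-93-5p, 19513879 in mutant and 14589704 in scr for RNA-seq. Of loci with fewer than 40, between 55.2% and 60.2% lay within 0.1 of a whole number. A fold is described without a test. A peak at the start overlaps the 1 kb on either side by at least 1 bp; 8 members have no strand in the promoter table. Members, lists and thresholds were chosen with earlier results of these data known, and genes of the other pathway list were named as the up to 4 widest ratios of miR-93-5p over scr for each assay, with Cdkn1a added after its values were seen. 1 gene of that list is not reported here by name. The calculations were tested on simulated data. Those data had bounds set by counting alone and no difference in model length, so the test does not cover bounds widened by isoforms or loci of unlike length. Python 3.11.15, pandas 2.3.3, numpy 2.4.6 and matplotlib 3.10.9 were used.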

Additional observations from a re-analysis of the deposited data

How the results depend on the processing

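No paired analysis was possible because each condition had 1 library for each assay, and no replicate could be left out. Of the counts of members recomputed under another setting 54 stayed within 1.5 times the reported count and 24 did not. Of the single-gene ratios 146 kept their direction and their side of the 2-fold limit, 4 came under the limit and 3 changed sign. The filter on the mean and the limits on shared length only choose genes and cannot change a gene's ratio. Part of the 146 was therefore fixed in advance. With a pseudocount of 0.1 FPKM, 2 members were 2-fold apart in RNA-seq between miR-93-5p and mutant and 5 between mutant and scr. With a shared length of at least 0.9, which left 25 members in RNA-seq, 0 were 2-fold apart between miR-93-5p and scr and 0 between mutant and scr, since Gdf15 and Gadd45a were not among them. In the pulldown that setting left 12 members, with 6 higher in miR-93-5p than in scr, 1 higher than in mutant, and 5 higher in mutant than in scr. With no limit, 29 members had a pulldown value, 5 were higher in miR-93-5p than in mutant and 2 were lower in mutant than in scr. Centring on the all-gene median left 1 member lower in miR-93-5p than in mutant, and Ccng2 stood at -0.69. In implied fragments, 4 RNA-seq members were apart between miR-93-5p and scr and 4 between mutant and scr, and the 1 apart between miR-93-5p and mutant was Gadd45a and not Trp53; in the pulldown 2 were lower in miR-93-5p than in scr, 1 higher and 1 lower than in mutant, and 2 lower in mutant than in scr. That measure reversed Trp53 in RNA-seq (0.74 over mutant) and Aen in the pulldown (-1.30 for miR-93-5p and -1.66 for mutant over scr), and put Mdm2 at 0.80, Ccng2 at -0.24 and Trp53 at -0.68 over mutant in the pulldown. For these the cause was not tested. Counting only peaks centred within 1 kb gave H3K4me3 at 14 starts in miR-93-5p and 13 in scr, and H3K27me3 at 0 in scr. For H3K27me3 in scr a window of 5 kb gave 3 and the whole locus 0; for H3K9me3 in miR-93-5p they gave 1 and 1, and in scr the locus gave 3. In the pulldown the limit on shared length left 12 members without a value, and wide bounds left 3 without implied fragments.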
